A study of Homo sapiens with 6 samples.

Results

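The clustered protocadherins are cell-surface adhesion proteins of the cadherin superfamily, encoded side by side on the long arm of human chromosome 5. Their transcripts were examined in bulk RNA sequencing of the Jurkat T-cell line, which was established from a human leukemia. Members were taken by symbol, as every row of the deposited table named as a PCDHA, PCDHAC, PCDHB, PCDHGA, PCDHGB or PCDHGC gene. This gave 54 of 59248 rows, with 16 in the alpha cluster, 16 in the beta cluster and 22 in the gamma cluster. PCDHA14, one of the 16 alpha rows, is annotated as a pseudogene. The set was proposed with results of these data in view. Detected members were chosen by a measured value, a mean of at least 12 estimated counts over all 6 libraries, and is given as a description.

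The overexpression group held 3 libraries of cells overexpressing an isoform of PDCD1, the gene of the inhibitory receptor PD-1, that the labels number 28. The vector group held 3 libraries of cells with the vector. Both groups were grown from cells the growth protocol calls Jurkat KO-1, and neither the meaning of that name nor the promoter of the construct nor the number of clones is given in the labels. Whether replicates were separate cultures is not in the labels, so a p-value covers library-to-library spread alone, possibly technical. Libraries held 61486369 to 72314037 estimated counts in overexpression and 59911578 to 84220970 in vector. PDCD1 had 945, 1059 and 807 estimated counts in overexpression and 14, 18 and 15 in vector. A value is for the whole gene, with no split by isoform. All 4 T-cell genes examined were present in every library. CD3E lay at 392 to 400 CPM in overexpression and 408 to 427 CPM in vector, CD247 at 82.0 to 87.8 CPM in overexpression and 110 to 116 CPM in vector, and LCK at 553 to 560 CPM in overexpression and 638 to 702 CPM in vector. TRBC1 was higher in overexpression, at 544 to 565 CPM, against 392 to 445 CPM in vector.

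Each alpha and gamma gene is a large variable exon with its own promoter, which is spliced to constant exons common to its cluster. The variable exon encodes the cadherin repeats, the membrane span and the start of the tail, and the constant exons encode the shared end of the tail. Beta genes are single variable exons with no constant part. In neurons each cell uses a small set of these promoters, chosen with CTCF, cohesin and DNA methylation. The proteins bind the same isoforms across facing membranes, which serves recognition of self. Textbook accounts describe the family in neurons and not in T cells.

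Most of these promoters carry a conserved sequence element with the core CGCT, first described by comparison of the promoters themselves. RefSeq promoter windows on build GRCh38.p14, which run from 250 bases before to 50 bases after a gene start, matched 47 of the 54 symbols. The letters CGCTG stood on one strand or the other in the windows of 41 of the 47 members, in 9 of 13 alpha, 12 of 14 beta and 20 of 20 gamma members, and in 48.0% of all 35116 windows of the table. Around this core the clusters differed. The run GGTGGCGCTGCAG was in 10 of 14 beta members, no alpha or gamma member and 0.0427% of all windows. The run GATGTCGCTGT was in 5 of 13 alpha members and 0.0256% of all windows, and the run GCGNCGCTG in 13 of 20 gamma members and 3.63% of all windows. These runs contain the CGCTG core, were searched on both strands and were chosen after the windows had been read. A match is a description of letters and not of binding.

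Members that were not called carried the CGCTG core too. Relative to the gene start of its window, the core began at -199 in PCDHGB2 and at 3 in PCDHB8. The stretches below, from the 7 genes called lower in overexpression, were cut around the core, so sharing it was fixed in advance. Each is read 5′ to 3′ on the plus strand, with the CGCTG core in capitals.
PCDHGA10: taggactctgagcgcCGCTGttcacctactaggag
PCDHGA6: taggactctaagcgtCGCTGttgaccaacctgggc
PCDHGA11: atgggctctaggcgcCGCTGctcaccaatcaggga
PCDHGB2: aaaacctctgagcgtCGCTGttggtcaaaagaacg
PCDHB8: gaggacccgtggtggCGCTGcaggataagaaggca
PCDHB16: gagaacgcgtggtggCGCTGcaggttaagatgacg
PCDHA10: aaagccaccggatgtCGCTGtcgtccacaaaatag
The PCDHGA10 stretch lies at chr5:141412932-141412966, that of PCDHGA6 at chr5:141373836-141373870 and that of PCDHGA11 at chr5:141420973-141421007. The PCDHGB2 stretch lies at chr5:141359922-141359956, that of PCDHB8 at chr5:141177778-141177812, that of PCDHB16 at chr5:141182311-141182345 and that of PCDHA10 at chr5:140855842-140855876. The run counted in beta windows was read from PCDHB8 and the run counted in alpha windows from PCDHA10.

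The whole window of PCDHGA10, the member with the highest mean, lies at chr5:141412737-141413036, and its single CGCTG begins 40 bases before the gene start.
PCDHGA10 window: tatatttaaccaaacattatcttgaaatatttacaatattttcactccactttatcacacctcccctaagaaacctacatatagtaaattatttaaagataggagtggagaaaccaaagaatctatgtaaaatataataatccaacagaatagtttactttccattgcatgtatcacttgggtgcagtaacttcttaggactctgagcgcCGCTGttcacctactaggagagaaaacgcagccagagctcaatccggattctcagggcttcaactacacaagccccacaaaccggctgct

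The structure of the clusters limits which gene a read can be assigned to. On GENCODE 29 (GRCh38, the assembly that hg38 names), the alpha genes lie at chr5:140786136-141012347, the beta genes at chr5:141051135-141249365 and the gamma genes at chr5:141330571-141512981. A median of 46.6% of the exonic bases of an alpha gene, and 43.9% of those of a gamma gene, also belonged to another member. Beta genes shared no exonic base, but a median of 13.5% of the 50-base words in their transcripts also occurred in another member, with 45.7% for PCDHB8. Levels of single members are uncertain to that extent. The strand setting was not given in the sources used here, so sense and any antisense reads cannot be told apart.

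Transcripts of the clusters were scarce in these cells. The detection mean of 12 was reached by 12 of the 54 members, which were 1 alpha, 4 beta and 7 gamma genes, and the other 42 lay below it. In the alpha cluster PCDHA10 had a mean of 26.0 estimated counts, and PCDHA9 followed below the limit at 4.50. In the beta cluster the limit fell between PCDHB9, at 13.8, and PCDHB10, at 8.0. In the gamma cluster it fell between PCDHGA11, at 14.2, and PCDHGC3, at 11.3. The highest estimated count of any undetected member in any library was 29, for PCDHB10 in vector replicate 2. The worth of 1 read pair in estimated counts is not settled by the low values. The floor of 12 assumes about 4 per pair, so that 12 would stand for 3 read pairs. No counting error was worked out for the floor, and values near it are uncertain.

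Of 54 members, 32, 26 and 25 had any count in the 3 overexpression libraries and 34, 46 and 38 in the 3 vector libraries. All 3 overexpression libraries were at 0 for 10 members, 7 of them gamma genes, and no member was at 0 in all 3 vector libraries. The share of all genes at 0 in 1 group alone is not given, so these counts are a description and not a result about the family. Per library, 28864 to 29296 of all genes were at 0 in overexpression and 27767 to 29530 in vector. Vector replicate 2, the deepest library, had the fewest. The 10 members at 0 in overexpression were all below the detection mean. At this depth, a member at 0 was not detectable rather than absent.

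**Figure D1:**
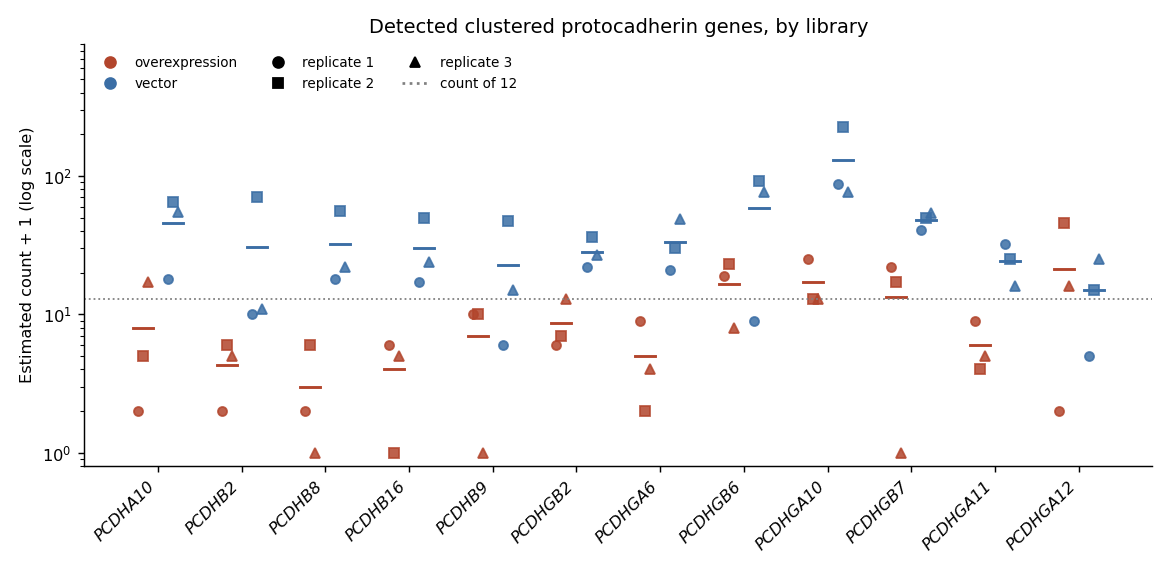
Estimated count plus 1 (log axis) of the 12 detected members in each library, with overexpression to the left of vector, a marker shape per replicate, short lines at group means and a dotted line at a count of 12. PCDHGA10 has 24, 12 and 12 estimated counts in overexpression and 87, 225 and 75 in vector.

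Transcripts of 7 members were called lower in overexpression and those of 0 members higher. The 7 were the gamma genes PCDHGA10, PCDHGA6, PCDHGA11 and PCDHGB2, the beta genes PCDHB8 and PCDHB16 and the alpha gene PCDHA10. The expression filter of edgeR kept 10 members, and the quasi-likelihood test over all 21055 genes called 7 of them lower and 0 higher. DESeq2 and limma-voom each called 8 lower and 0 higher. Of all 21055 genes, DESeq2 called 5306 lower and 4920 higher, and limma-voom 4940 lower and 4970 higher. In the edgeR fit, 23.4% of all genes tested were called lower and 22.6% higher. A gene could pass the filter of the main fit through either group alone. Of the 7 called members, 4 (PCDHB8, PCDHB16, PCDHGA6 and PCDHGA11) were over its limit in the vector libraries alone. PCDHA10 and PCDHGB2 were each over it in all 3 vector libraries and 1 overexpression library. Only PCDHGA10 was over it in all 6 libraries. The count of 7 in 10 is therefore a description of the genes kept and not a rate for the family.

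With no filter, all 54 members were tested and 10 were called lower and 0 higher (18.5% lower; over all genes in that fit 11.5% were lower and 10.1% higher). The 10 held 6 of the 7, all but PCDHA10, and added PCDHA9, PCDHGA5, PCDHGA7 and PCDHGC4, whose vector counts ran from 4 to 20. All 3 overexpression libraries lay below all 3 vector libraries in CPM for 14 of the 54 members, and none of the 54 had the reverse. Among all genes tested the groups separated that way in 28.6% and the reverse way in 30.1%. Those shares are over genes that the filter kept, and 44 of the 54 members were not kept, so the 2 are not like for like.

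PCDHGA10, a gamma-A gene at chr5:141412987-141512979, showed the firmest fall. It had 24, 12 and 12 estimated counts in overexpression, or 0.240 ± 0.113 CPM, against 87, 225 and 75 in vector, or 1.80 ± 0.879 CPM (SD, n = 3 each). Each overexpression library lay below each vector library. The log2 fold change was -2.91 ± 0.47 (SE; edgeR adjusted p = 0.00148). The call held in all 13 alternative settings that tested it, with log2 fold changes from -3.36 to -2.45 and adjusted p of at most 0.0116. PCDHGA10 also had the highest vector level per length of all members, at 0.271 CPM per kb of exon.

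PCDHGA6, another gamma-A gene, had 8, 1 and 3 estimated counts in overexpression and 20, 29 and 48 in vector. The groups did not overlap, and no overexpression value reached the floor of 12, which leaves the fitted size uncertain. The log2 fold change was -2.93 ± 0.73 (SE; edgeR adjusted p = 0.0118). It was -3.92 without overexpression replicate 1, and the call was lost without overexpression replicate 3 (adjusted p = 0.0512) and without vector replicate 3 (adjusted p = 0.0540). PCDHGA11 had 8, 3 and 4 estimated counts in overexpression and 31, 24 and 15 in vector. It fell with a log2 fold change of -2.20 ± 0.64 (SE; edgeR adjusted p = 0.0232), and its groups did not overlap. Its call was lost without overexpression replicate 2 or 3 (adjusted p = 0.0823 and 0.0803) and without vector replicate 1 (adjusted p = 0.104).

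PCDHGB2, a gamma-B gene, had 5, 6 and 12 estimated counts in overexpression and 21, 35 and 26 in vector, with no overlap. The log2 fold change was -1.77 ± 0.52 (SE; edgeR adjusted p = 0.0242). This call was the most dependent on single libraries among the 7. It was lost without overexpression replicate 1 or 2 (adjusted p = 0.0808 and 0.0838) and on dropping any of the 3 vector libraries (adjusted p from 0.0562 to 0.0674), and also with the replicate number as a block (adjusted p = 0.0555).

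The other gamma genes tested did not pass. PCDHGB6 had 18, 22 and 7 estimated counts in overexpression and 8, 91 and 75 in vector. Vector replicate 1 lay among the overexpression values, and the log2 fold change was -1.79 ± 0.74 (SE; edgeR adjusted p = 0.0798). Without vector replicate 1 it was called (log2 fold change -2.29, adjusted p = 0.00749), and DESeq2 called it as well (adjusted p = 0.0477). PCDHGB7 had 21, 16 and 0 estimated counts in overexpression and 40, 49 and 53 in vector. Its groups did not overlap, but the 0 of overexpression replicate 3 widened the spread, and the log2 fold change was -1.93 ± 0.84 (SE; edgeR adjusted p = 0.0924). Without overexpression replicate 3 it was -1.36 and called (adjusted p = 0.0391), as it was with limma-voom (adjusted p = 0.0425). PCDHGA12 had 1, 45 and 15 estimated counts in overexpression and 4, 14 and 24 in vector. The groups overlapped (edgeR adjusted p = 0.701), and the sign of the fitted change turned without overexpression replicate 2.

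The remaining 15 gamma genes did not pass the filter and were tested only in the fit with no filter. PCDHGC3, whose mean lay next below the detection limit, had 23, 3 and 6 estimated counts in overexpression and 5, 6 and 25 in vector, and the groups overlapped. PCDHGC4, another C-type gene, was at 0 in all overexpression libraries and had 4, 13 and 5 estimated counts in vector. PCDHGA5 was likewise at 0 in all overexpression libraries, with 6, 20 and 4 estimated counts in vector. With no filter both were called lower (edgeR adjusted p = 0.0347 for PCDHGC4 and 0.0273 for PCDHGA5).

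**Figure D2:**
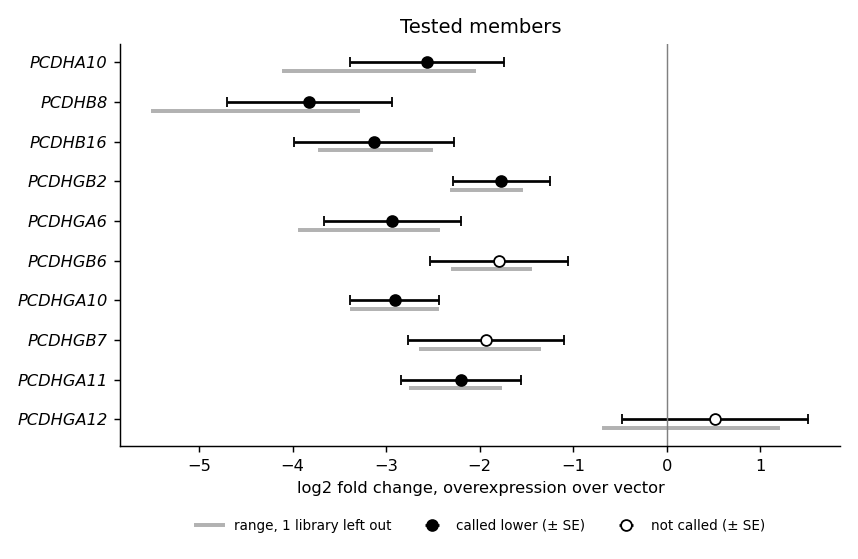
Log2 fold change (overexpression over vector) of the 10 tested members, as points with SE bars, filled where called lower, and grey bars for the range when each library is left out in turn. The 7 called members lie between -3.82 and -1.77, and the range of PCDHGA12 spans 0.

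In the beta cluster, PCDHB8 and PCDHB16, which are neighbours, fell. PCDHB8 had 1, 5 and 0 estimated counts in overexpression, or 0.0275 ± 0.0352 CPM, against 17, 55 and 21 in vector, or 0.428 ± 0.219 CPM (SD, n = 3 each). All 3 overexpression values were under the floor. The log2 fold change was -3.82 ± 0.89 (SE; edgeR adjusted p = 0.00849), and -5.49 without overexpression replicate 2. The call was kept in the 12 alternative settings that tested it, with adjusted p of at most 0.0401. PCDHB8 passed the filter through vector alone and those settings reuse the same libraries, so this is no support. The stricter filter and the division by 4 did not keep PCDHB8. PCDHB16 had 5, 0 and 4 estimated counts in overexpression and 16, 49 and 23 in vector, again with no overlap. The log2 fold change was -3.13 ± 0.86 (SE; edgeR adjusted p = 0.0175), or -2.52 without overexpression replicate 2. The call was lost without overexpression replicate 3 (adjusted p = 0.0530), without vector replicate 2 (adjusted p = 0.0564) and with the replicate block (adjusted p = 0.0576).

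The other 2 detected beta genes did not pass the filter of the test. PCDHB2 had 1, 5 and 4 estimated counts in overexpression and 9, 70 and 10 in vector. The groups did not overlap, and 1 library, vector replicate 2, held most of the vector count. PCDHB9 had 9, 9 and 0 estimated counts in overexpression and 5, 46 and 14 in vector. The 2 groups overlapped, and vector replicate 2 again stood highest. PCDHB10, next below the detection limit, had 2, 5 and 4 estimated counts in overexpression and 0, 29 and 8 in vector. Vector replicate 2 held the highest CPM of 12 of the 16 beta genes, 8 of the 22 gamma genes and 7 of the 16 alpha genes.

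PCDHA10 was the only detected alpha gene. It had 1, 4 and 16 estimated counts in overexpression and 17, 64 and 54 in vector. In CPM the groups did not overlap, with 0.250 in overexpression replicate 3 and 0.293 in vector replicate 1 as the nearest values. The log2 fold change was -2.56 ± 0.83 (SE; edgeR adjusted p = 0.0340), and -4.09 without overexpression replicate 3. The call was lost without overexpression replicate 1 or 2 (adjusted p = 0.0809 and 0.115), on dropping vector replicate 2 or 3 (adjusted p = 0.0631 and 0.0937) and with no filter (adjusted p = 0.0592).

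PCDHA9, which lies beside PCDHA10, had 0, 1 and 0 estimated counts in overexpression and 7, 10 and 9 in vector. PCDHAC1, a C-type gene of the alpha cluster, had 1, 0 and 1 in overexpression and 4, 1 and 13 in vector. PCDHA9 was under the floor in every library and PCDHAC1 in all but vector replicate 3. Neither passed the filter, and with no filter PCDHA9 was called (edgeR adjusted p = 0.0379) and PCDHAC1 was not (adjusted p = 0.199). PCDHA10 held 38.2% of the summed alpha estimated count in overexpression and 52.9% in vector.

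Summed over all members, the 3 clusters were lower in overexpression by similar ratios. The gamma sum was 1.80, 1.53 and 1.02 CPM in overexpression and 4.61, 6.90 and 6.09 CPM in vector. The beta sum was 0.493, 0.618 and 0.485 CPM in overexpression and 1.05, 3.82 and 1.36 CPM in vector. The alpha sum was 0.308, 0.188 and 0.328 CPM in overexpression and 0.586, 1.61 and 1.35 CPM in vector. In each cluster every overexpression sum lay below every vector sum. The log2 ratios of the group means were -2.02 for gamma, -1.97 for beta and -2.10 for alpha, and are given with no test, since the members were proposed with results known. Without vector replicate 2 the beta ratio was -1.18, while the gamma ratio was -1.88 and the alpha ratio -1.81. Without PCDHA10 the alpha ratio was -1.71. Without PCDHGA10, which held 16.2% of the gamma sum in overexpression and 31.3% in vector, the gamma ratio was -1.75. In bulk RNA, fewer cells using a gene and less RNA per cell cannot be told apart.

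**Figure D3:**
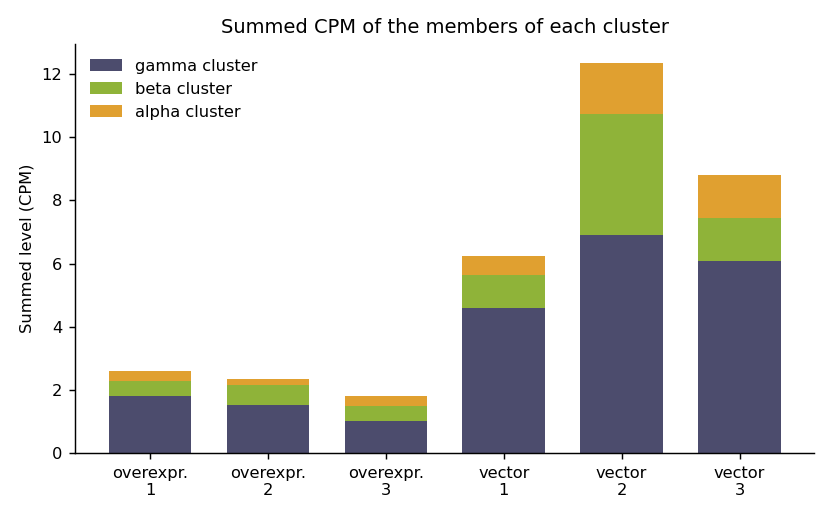
Summed CPM of all members of the gamma, beta and alpha clusters (stacked bars from 0) in each library, overexpression at left. The totals of all 54 members are 2.60, 2.34 and 1.83 CPM in overexpression and 6.24, 12.3 and 8.80 CPM in vector.

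Along the chromosome, the higher vector levels stood in a few places. The detected gamma genes lay in 2 stretches, around PCDHGB2 and PCDHGA6 and from PCDHGB6 to PCDHGA12, and 3 of the 4 detected beta genes lay next to one another from PCDHB8 to PCDHB9. The mean level per length of PCDHGB7 was 0.0361 CPM per kb in overexpression and 0.140 CPM per kb in vector. That of PCDHGB6 was 0.0335 CPM per kb in overexpression and 0.117 CPM per kb in vector. These 2 genes flank PCDHGA10.

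**Figure D4:**
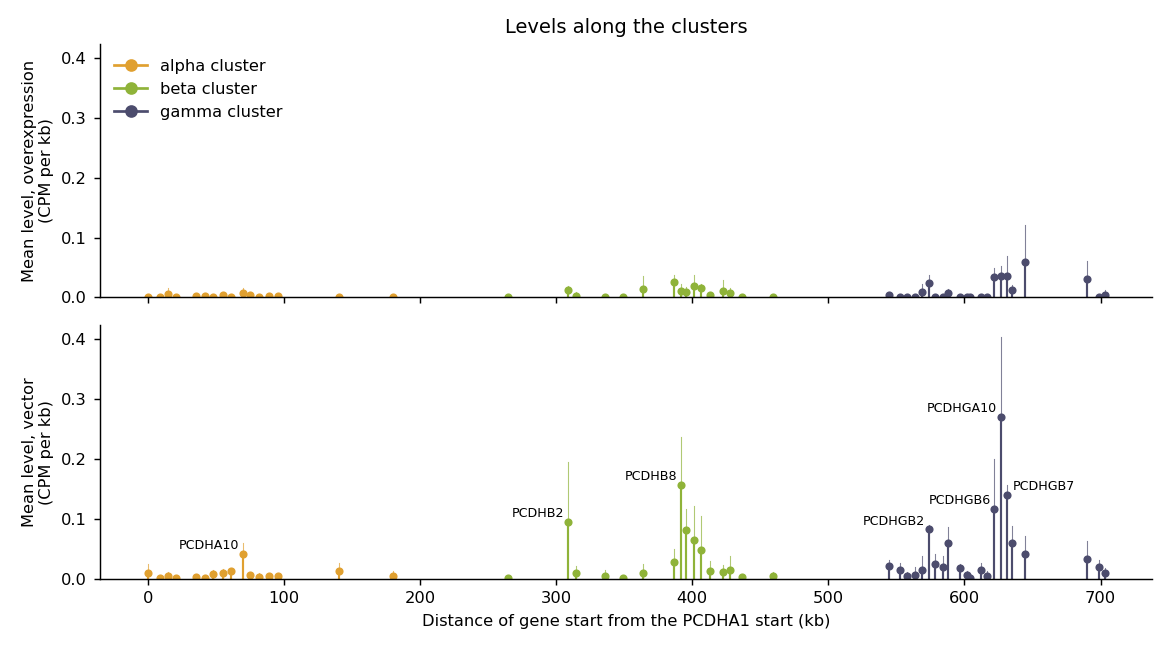
Mean level in CPM per kb of exon of all 54 members (vertical axis), with thin lines for 1 SD upward, against distance from the PCDHA1 start in kb, overexpression above and vector below. The highest vector level is that of PCDHGA10, at 0.271 CPM per kb.

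Genes in or beside the clusters that are not members were called both ways. Of 24 such genes listed, which include the nonclustered protocadherins PCDH1 and PCDH12, 18 were tested, and 5 were called higher and 3 lower. Their median log2 fold change was -0.01, against 0.02 over all genes tested. Of all genes tested, 22.6% were called higher and 23.4% lower. TAF7, a gene of a general transcription factor subunit that lies between the beta and gamma clusters, fell to 42.1 ± 2.59 CPM in overexpression, against 61.4 ± 3.60 CPM in vector (SD, n = 3 each). Its log2 fold change was -0.55 ± 0.07 (SE, edgeR adjusted p = 0.000392). DIAPH1, a formin gene next to the gamma cluster, fell by 0.40 on the log2 scale and IK, on the alpha side, by 0.24. RELL2, DELE1 and ZMAT2 rose, with log2 fold changes of 0.64, 0.63 and 0.30. SLC25A2, which also lies between the beta and gamma clusters, had 0, 0 and 4 estimated counts in overexpression and 0, 1 and 2 in vector. Among the called neighbours RELL2 had the largest fitted change. Its SE was 0.11, against 0.47 to 0.89 for the called protocadherins. Genes with larger SEs are called only at larger changes, so the sizes of called changes cannot be compared between the 2 sets.

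Genes of architectural proteins that fold the protocadherin locus were called both ways. Of 11 genes of CTCF, cohesin and its loaders and release factors, all tested, 6 were called lower and 1 higher. Their median log2 fold change was -0.15. The shares over all genes tested were 23.4% lower and 22.6% higher. CTCF, the DNA-binding protein that anchors loops at these promoters, fell to 213 ± 3.5 CPM in overexpression, against 277 ± 1.04 CPM in vector (SD, n = 3 each). Its log2 fold change was -0.38 ± 0.04 (SE, edgeR adjusted p = 0.000137). PDS5A and PDS5B, cohesin-associated factors, fell by 0.47 and 0.42 on the log2 scale. SMC1A, a core cohesin subunit, rose by 0.20 ± 0.04 (SE; edgeR adjusted p = 0.00613). The spread between libraries was small beside these differences, which were themselves small.

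Silencing and DNA methylation genes moved both ways, with 7 of 18 called lower and 4 higher and a median log2 fold change of -0.03. Beside this stood 23.4% lower and 22.6% higher over all genes tested. DNMT3B, a de novo DNA methyltransferase gene, fell to 16.9 ± 0.952 CPM in overexpression, against 29.8 ± 1.78 CPM in vector (SD, n = 3 each). Its log2 fold change was -0.82 ± 0.08 (SE, edgeR adjusted p = 0.000131). TET3, which oxidises methylated cytosine, and EHMT1, a histone H3 methyltransferase, fell by 1.07 and 0.49 on the log2 scale. TET1 and TET2, of the same family as TET3, rose by 0.53 and 0.39, and SETDB1, another histone H3 methyltransferase, by 0.33. SMCHD1, a chromatin protein that represses the clusters in mouse, had a log2 fold change of -0.44 ± 0.07 (SE; edgeR adjusted p = 0.00136), and was added to the genes named by rule after its value was seen.

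Genes of proteins that bind, cleave or signal from clustered protocadherins also changed both ways. Of 24 such genes, 23 passed the filter and were tested, and 10 were called lower and 3 higher. Their median log2 fold change was -0.14. For all genes tested the shares were 23.4% lower and 22.6% higher. ADAM10, the protease that sheds protocadherin ectodomains, fell to 158 ± 6.28 CPM in overexpression, against 310 ± 3.29 CPM in vector (SD, n = 3 each). Its log2 fold change was -0.97 ± 0.05 (SE, edgeR adjusted p = 3.95e-06). RAC1, a small GTPase of the actin cytoskeleton, and WASF1, a subunit of the WAVE complex, fell by 0.94 and 1.05. KIF5A, a kinesin motor gene, MARCKS and the kinase gene FYN rose by 0.92, 0.51 and 0.21.

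Cadherin superfamily genes outside the clusters did not move one way. Of 21 such genes found among the deposited rows, 12 were tested, and 3 were called lower and 2 higher. Their median log2 fold change was 0.42. Shares among all genes tested were 23.4% lower and 22.6% higher. DCHS1, a large cadherin that pairs with FAT4, had 53, 69 and 78 estimated counts in overexpression and 275, 317 and 377 in vector (log2 fold change -2.26 ± 0.23, SE; edgeR adjusted p = 0.000143). FAT4 went the other way, with 46, 86 and 92 estimated counts in overexpression and 8, 9 and 1 in vector (log2 fold change 3.63 ± 0.62, SE; edgeR adjusted p = 0.00185). The vector values of FAT4 lay under the floor, so the size of its rise is uncertain. DCHS2 rose by 1.79 ± 0.49 (SE; edgeR adjusted p = 0.0178), a call lost without overexpression replicate 3 or vector replicate 3 (adjusted p = 0.0825 and 0.0581).

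PCDH19, a nonclustered protocadherin on the X chromosome, had 101, 147 and 128 estimated counts in overexpression and 246, 434 and 260 in vector, and fell by 1.28 on the log2 scale. PCDH9, with 2392, 2289 and 2220 estimated counts in overexpression and 2172, 3799 and 2805 in vector, fell by 0.30 (edgeR adjusted p = 0.0393). The PCDH9 call was lost without overexpression replicate 2 or 3 (adjusted p = 0.140 and 0.0933) and on dropping vector replicate 2 or 3 (adjusted p = 0.0592 and 0.0744), with no filter, with upper-quartile factors and with the replicate block.

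**Figure D5:**
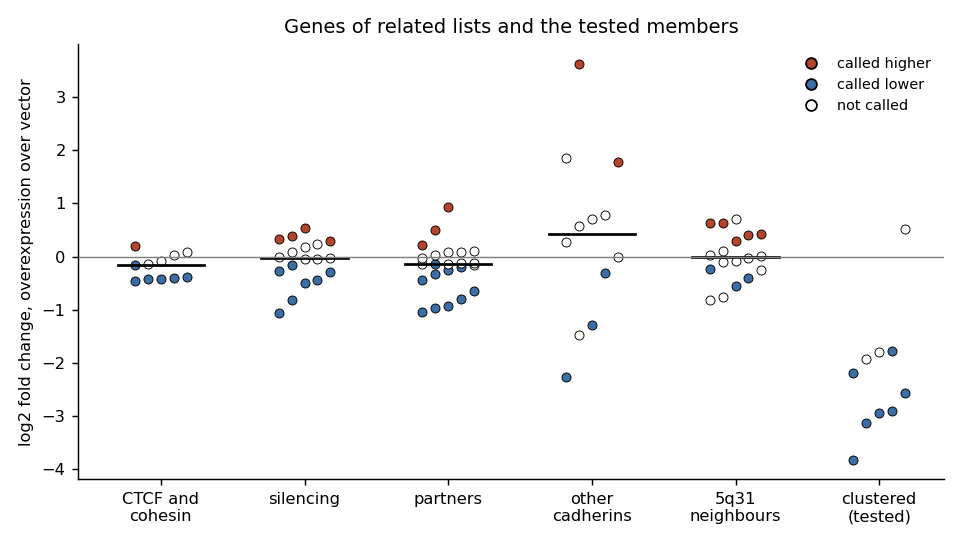
Log2 fold change (overexpression over vector) of the tested genes of 5 related lists and of the 10 tested clustered protocadherins, coloured by edgeR call, with bars at the median of each list. The list medians run from -0.15 to 0.42, and no median is drawn for the clustered genes, which are those that passed the filter.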

How the data were processed

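The authors deposited expected counts, that is estimated counts as whole numbers per gene symbol, in 1 unscaled column for each of 6 libraries. The submitters' processing notes name build hg38 and list StringTie, DESeq2, STAR 2.7.10a and fastp 0.23.2; annotation release and strand setting are not given in the sources used here. Each column had 1069 to 1154 genes at a value of 4 and 946 to 1031 at 3, but 2716 to 3651 at 1, so the estimated counts per read are not settled and no counting interval is given. Low genes were dropped with filterByExpr of edgeR 4.0.16 (R 4.3.3); the rest were TMM-scaled and tested by quasi-likelihood for group alone. Benjamini-Hochberg adjustment ran over all genes tested, with a threshold of 0.05, and SEs were derived from the F statistic. CPM values use TMM-adjusted library sizes. The fit was tested on simulated counts. Members and lists were chosen with earlier results of these data known. All called members were named, then the 3 members of highest mean in each cluster and those next to the detection limit, and up to 3 genes each way per list with the smallest adjusted p. Alternatives used DESeq2 1.42.0 and limma 3.58.1, other scaling and filters, division by 4, a replicate block and each library left out. Positions came from GENCODE 29 and promoter sequences from RefSeq (GRCh38.p14); the table held no window for PCDHA3, PCDHA13, PCDHA14, PCDHB6, PCDHB11, PCDHGA12 and PCDHGC5. Figures were drawn with matplotlib 3.10.9.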

Additional observations from a re-analysis of the deposited data

How the results depend on the processing

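The count of genes called over the whole table stayed between 7916 and 10868 in all alternatives. The 7 members called lower became 0 with the stricter expression filter, which kept no member, and 1, PCDHGA10, with values divided by 4, which kept no other member. With each library left out in turn, 4 to 7 members were called lower. No alternative called a member higher. Replicate numbers did not pair the libraries, with correlations of same-numbered deviations of 0.0052, 0.0013 and 0.0230; with the replicate block 5 members and 8690 genes were called, and each overexpression library correlated best with vector replicate 1, 1 and 3 in turn. Detected members numbered 19, 4 and 1 at means of at least 4, 24 and 50. The beta sum ratio was -2.28 to -1.18 with a library left out. It was -2.86 over the 4 detected beta genes, of which 0 had a mean of 12 in overexpression. The detection rule chose these genes through vector, so that ratio is no support. The fitted change of PCDHGA12 was -0.17 with limma-voom and ran from -0.67, without overexpression replicate 2, to 1.19 with a library left out. Cadherin genes outside the clusters called higher numbered 0 with the stricter filter and 1 to 5 with a library left out, and band neighbours called lower numbered 5 with DESeq2. The cause of these shifts was not tested, apart from the fewer genes kept. Depth, with most members under 12 estimated counts, limits every size given.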

Other observations

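The table also held 5 protocadherin pseudogene rows inside the clusters, which were not members and did not pass the expression filter. PCDHGB8P had 1, 4 and 0 estimated counts in overexpression and 5, 25 and 10 in vector. PCDHGB9P, also of the gamma cluster, had 0, 0 and 1 estimated counts in overexpression, against 7, 4 and 1 for vector. The beta pseudogenes PCDHB17P, PCDHB18P and PCDHB19P had sums over the 3 libraries of 0, 5 and 1 in overexpression and 1, 1 and 2 in vector, under the floor in every library.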
